A study of Oryza sativa with 12 samples.

Results

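Starved shoots of the rice phr3 mutant were compared with starved shoots of the wild type (WT), gene by gene, on the Affymetrix rice GeneChip, an array that reads each transcript with short oligonucleotide probes grouped into probe sets. The comparison takes 6 of the 12 arrays of the series, the 3 titled as the phr3 mutant and the 3 titled as wild-type Nipponbare. Plants of both genotypes grew hydroponically in a greenhouse, first for 14 days with 200 µM phosphate and then for 7 days without any, under 12 h days at 30 °C and nights at 22 °C. All values therefore set starved shoots against starved shoots, and plants kept on phosphate were not analysed here. The labels call the 3 arrays of a genotype biological repeats. They give neither the background of the phr3 mutant nor how the line was made, so a difference between the genotypes can also come from their backgrounds, and the effect of the mutation and that of the line cannot be told apart. Leaf is given as the tissue, although shoots were sampled according to the treatment protocol. The arrays of the phr1 single mutant and of the phr123 triple mutant, 3 each and starved in the same way, entered the statistical model through its estimate of the spread, and phr1 was also compared with phr3.

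PHR3 belongs, with PHR1 and PHR2, to a small group of MYB transcription factors that bind a short motif in the promoters of phosphate starvation genes and switch them on. SPX proteins hold these factors back when phosphate is plentiful. The responses described below belong to other programmes. DREB1 factors of the AP2/ERF family are switched on soon after cold and in turn activate cold tolerance genes. JAZ proteins repress jasmonate responses, and their own genes are switched on quickly by jasmonate and wounding, so that JAZ transcripts are used as a sign of jasmonate signalling. Small heat shock proteins keep unfolded proteins soluble, class B heat stress factors mostly repress, and B-type cyclins drive cells into mitosis.

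Values are signals from the MAS5 algorithm, scaled by array, and differences are log2 phr3 minus WT from a limma fit over 28597 probe sets, with Benjamini-Hochberg adjusted p-values and a threshold of 0.05. A gene rose or fell where it passed that threshold. Arrays of phr3 correlated with each other with r from 0.954 to 0.957, WT arrays with r from 0.961 to 0.962, and the 9 pairs of a phr3 with a WT array gave r between 0.946 and 0.952, each taken over probe sets. The level below which a signal was taken as not measured, called here the reporter level, was the 95th percentile of control probe sets for marker genes of other organisms. It was 48.4, 54.8 and 65.7 on the phr3 arrays (replicates 1, 2 and 3) and 51.3, 51.4 and 63.7 on the WT arrays. Of 15 photosynthesis genes, 14 lay above it on all 3 phr3 arrays and 14 on all 3 WT arrays, with summed signals from 553690 to 632010 in phr3 and from 611114 to 623439 in WT. Of 15 root marker genes, 7 lay above it on all 3 phr3 arrays and 9 on all 3 WT arrays, with sums from 15909 to 19978 in phr3 and from 16259 to 17939 in WT. These markers ranged widely. AMT1 had 5631.1, 5009.8 and 5153.8 in phr3 and 4556.6, 5470.9 and 4780.7 in WT. LSI1 had 1190.1, 877.8 and 1071.4 in phr3 and 810.1, 1094.1 and 838.1 in WT. The root silicon transporter gene LSI2 had 5.2, 5.0 and 6.5 in phr3 and 5.7, 5.3 and 1.7 in WT. Whether root tissue was present was not tested. Seed and pollen markers summed to between 1251 and 1607 in phr3 and between 1347 and 1616 in WT over 12 genes. The 3' over 5' ratio of the GAPDH control is a sign of RNA quality. Its log2 was 1.36 on the array of phr3 replicate 1, against 2.28 and 2.51 on the other 2 phr3 arrays and 2.18 to 2.45 on the WT arrays. For actin the phr3 arrays (replicates 1, 2 and 3) had 2.62, 2.24 and 2.69, and WT 2.32 to 2.41. For cyclophilin they had 0.81, 0.85 and 1.0, and WT 0.84 to 1.02. For ubiquitin they had -0.57, -0.51 and -0.42, and WT -0.60 to -0.31.

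The PHR3 probe set (LOC4328249) gave signals of 57.7, 118.9 and 94.5 in phr3, against 462.4, 469.1 and 386.7 in WT. The groups lay far apart, and the log2 difference of -2.34 (SE 0.603) did not pass in the fit of all 12 arrays (limma adjusted p = 0.0713). It passed when only the 6 phr3 and WT arrays were fitted (adjusted p = 0.0011) and when the phr123 array labelled replicate 1 or that of replicate 3 was left out (adjusted p = 0.000163 and 0.0335). In phr1 it had 426.1, 409.7 and 408.2, and in phr123 it had 1186.6 on the array labelled replicate 1, above every WT array, and 172.6 and 118.3 on the others. The PHR3 signal of that array goes against its label, and it enters the pooled spread of the fit. In PHR2 the same array was like the others of its label, with 18.3 against 43.8 and 24.3 in the brighter probe set. Whether the label is right was not tested. Where the PHR3 probes lie relative to the disrupted part of the gene is not given by the labels. PHR1 had 1203.6, 1147.9 and 1134.9 in phr3 and 876.9, 1096.2 and 1153.8 in WT, and PHR2, in its brighter probe set, had 2106.8, 1939 and 1967.9 in phr3 and 1750.2, 2031.1 and 1814.5 in WT. The ranges of both overlapped between the genotypes (adjusted p = 0.755 and 0.921). Of the measured neighbours of PHR3 in the gene order of the RefSeq annotation, 5 on each side, only the next gene, LOC4328250, passed the test, with a difference of -0.51 (adjusted p = 0.00145).

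In phr3, 360 of the 28597 probe sets rose (1.26%) and 209 fell (0.731%), 569 in all (1.99%), and 3530 had an unadjusted p under 0.05. A difference of at least 2-fold was seen in 151 of those that rose and 56 of those that fell. Counted over 15469 genes, each represented by its brightest probe set, 259 rose (1.67%) and 135 fell (0.873%). The median difference over these genes was 0.00765, and it was -0.0702 after each array was centred on its median. After median centring 298 passed, of which 178 rose and 120 fell, and with untrended eBayes 299 passed, of which 210 rose and 89 fell. The total was 347 without phr3 replicate 2, 341 without phr3 replicate 3, 331 without WT replicate 2 and 378 without WT replicate 3. The rises numbered 220, 206 and 225 without phr3 replicate 2, phr3 replicate 3 and WT replicate 2. The falls numbered 127, 135, 113, 106 and 114 without phr3 replicate 2, phr3 replicate 3, WT replicate 1, WT replicate 2 and WT replicate 3. The 3 arrays of phr3 lay all above or all below the 3 of WT in 5388 probe sets (18.8%). The plot of all probe sets by signal and difference places the genes named below among them.

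**Figure D1:**
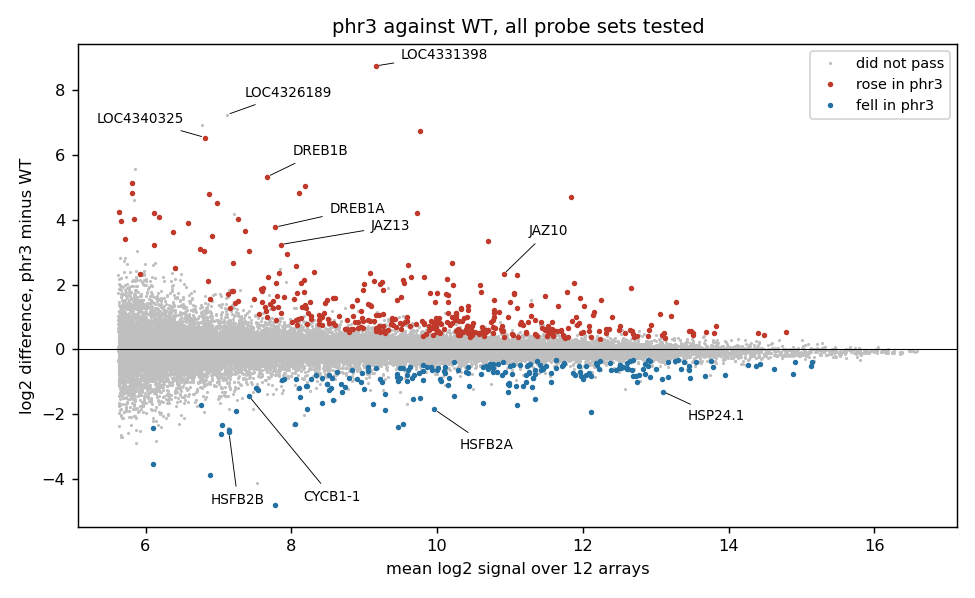
Log2 difference (phr3 minus WT) against mean log2 signal over 12 arrays for the 28597 probe sets tested, with the 360 that rose in red and the 209 that fell in blue. Among the labelled points DREB1B (5.33) and DREB1A (3.77) rose, HSFB2A (-1.85) and HSP24.1 (-1.30) fell, and LOC4326189 did not pass; for LOC4331398, LOC4340325, LOC4326189 and HSFB2B, below the reporter level in the dimmer genotype, the height is a fitted value and no measured size.

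The lists of genes described next differed in how many members passed. Of 13 measured cold and DREB genes, 6 rose, of 31 wounding and jasmonate genes 5, and of 98 other rapid stress and calcium genes 23, with 0 that fell in each. Of 49 heat shock genes, 11 fell and 1 rose, and of 70 cell division genes 2 fell and 0 rose. These compare with 2.55% of all genes tested that passed in either direction. Members of a list are not independent of each other, and 4 DREB1 genes stand in both the cold list and the rapid stress list. Members named below come from the 8 with the smallest p of each of these lists and the 4 with the smallest p of the others. Genes named for the largest rises and falls were taken only where the phr3 arrays lay all above or all below the WT arrays. In those genes the lack of overlap is a condition of the choice and adds no evidence. Further members were chosen after their values were seen, namely DREB2A, DREB2B, LTI6A, MYBS3, JAZ1, JAZ5, JAZ7, JAZ8, JAZ11, AOC, LOX5, COI1A, CML30, CML31, CML10, CIPK10, CIPK3, CIPK21, CDPK1, PCNA, CYCD5-2, HSP18.8, HSP26.7, HSP16.9A, HSP17.7, hsp17.9, CLPB1, BIP1 and HSP81-1. The plot of the lists shows every measured member.

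**Figure D2:**
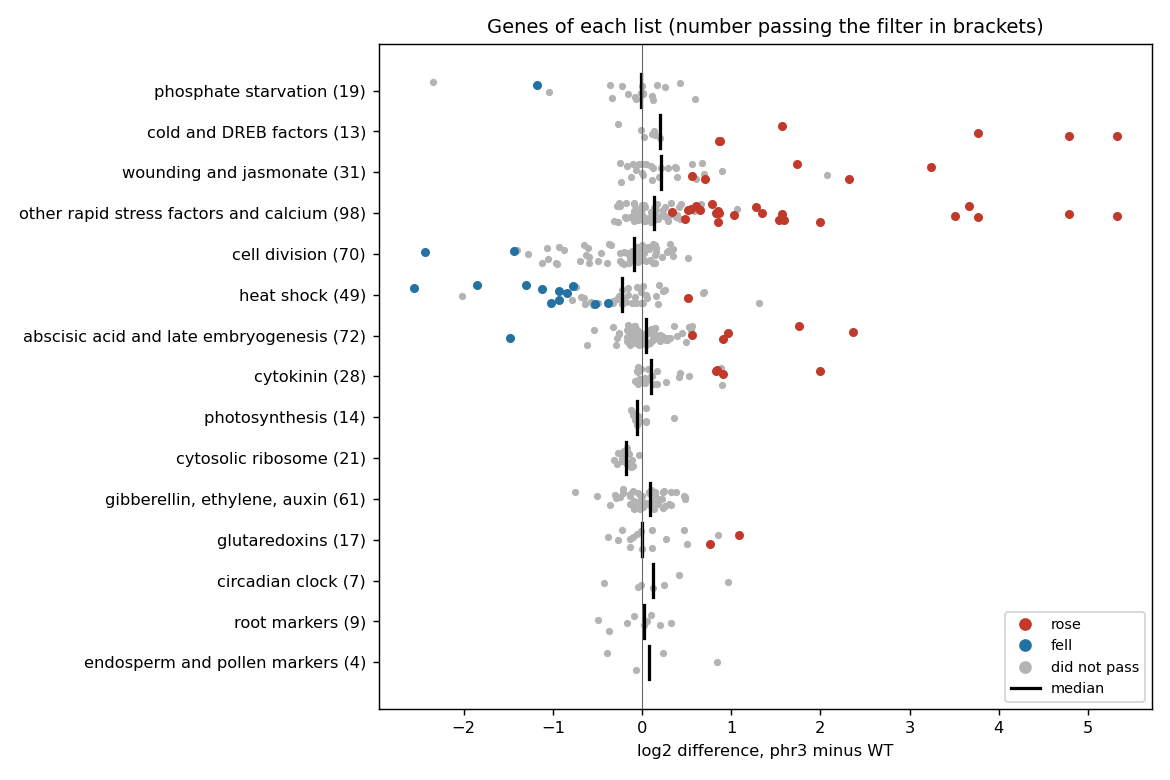
Log2 difference (phr3 minus WT) of each gene that passed the filter on dim probe sets, by list, with the number of genes in brackets; red points rose, blue points fell, grey points did not pass, and the black bar is the list median. The medians run from -0.23 for heat shock genes to 0.21 for wounding and jasmonate genes.

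The cold list holds DREB1 and DREB2 factors, MYB factors and cold-induced genes, and its largest differences were in DREB1 factors. DREB1A, also known as CBF3, had signals of 718.9, 1504.6 and 1173.5 in phr3, against 51.9, 101.3 and 94.4 in WT. Every phr3 array lay above every WT array, and the difference was 3.77 (SE 0.345, limma adjusted p = 4.51e-05). Its neighbour in the genome, DREB1B, had 457.4, 2195.6 and 1339.4 in phr3 and 7.9, 51.8 and 50.7 in WT, where 2 of the 3 arrays lay at or below the reporter level. It rose by 5.33 on the log2 scale (SE 0.667, adjusted p = 0.000577), by 5.96 without phr3 replicate 1 and by 4.43 without WT replicate 1. In DREB1G the signals were 414.5, 1453.4 and 625.2 in phr3 and 71, 86.4 and 2.9 in WT (4.79, adjusted p = 0.0221), a call that ended when phr3 replicate 2 or 3 was left out (adjusted p = 0.112 and 0.0744), while its size was 5.51, 5.65 and 3.20 without WT replicates 1, 2 and 3. DREB1E had 210.5, 384.5 and 238 in phr3 and 112.3, 84.8 and 78 in WT (1.57, adjusted p = 0.0237), and its call ended without phr3 replicate 2, phr3 replicate 3, WT replicate 2 or WT replicate 3 (adjusted p from 0.0684 to 0.129). In all 4 DREB1 genes phr3 replicate 2 had the highest signal and phr3 replicate 1 the lowest. DREB1C did not pass the filter on dim probe sets.

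Members of the cold list outside the DREB1 group differed less. MYB4, an R2R3 MYB factor known for raising chilling tolerance, had 948.1, 1402.9 and 1239.4 in phr3, against 705.3, 594.6 and 657.2 in WT, with no overlap. It rose by 0.86 (SE 0.142, limma adjusted p = 0.00464), a call that ended after median centring (adjusted p = 0.056), and its dimmer probe set had 0.74 (adjusted p = 0.351). TPP1, a trehalose phosphate phosphatase gene, rose by 0.88 (adjusted p = 0.0391), but the call ended without phr3 replicate 2, phr3 replicate 3, WT replicate 2, WT replicate 3, phr1 replicate 2, phr1 replicate 3 or phr123 replicate 3 (adjusted p from 0.0519 to 0.161). DREB2A and DREB2B, factors better known from drought and heat, had -0.27 (adjusted p = 0.828) and 0.13 (adjusted p = 0.79). The small membrane protein genes LTI6A and LTI6B, which are cold-induced in rice, had 0.02 and 0.20 (adjusted p = 0.969 and 0.39), MYBS3, a repressor of DREB1 genes, had 0.11 (adjusted p = 0.804), and MYB3R-2, a MYB factor known from cold tolerance, 0.14 (adjusted p = 0.755). The 6 genes that rose out of 13 became 3 without phr3 replicate 2 or without phr3 replicate 3.

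All 5 genes of the jasmonate list that rose encode JAZ repressors, and 7 other measured JAZ genes did not pass. JAZ13 had 205.7, 1604.7 and 629.3 in phr3, against 60, 58 and 71 in WT. The phr3 arrays spread widely but all lay above WT, and the difference was 3.24 (SE 0.525, limma adjusted p = 0.00414), or 4.0 without phr3 replicate 1 and 2.52 without phr3 replicate 2. JAZ10 (TIFY11b) had 2738.5, 6495.2 and 4727.6 in phr3 and 950.6, 807.9 and 879.6 in WT, and its 2 probe sets rose by 2.32 (adjusted p = 6.99e-05) and 2.24 (adjusted p = 0.000199). JAZ12, which lies beside JAZ13 in the gene order, had 1424, 4140.3 and 2830.8 in phr3 and 788.5, 717.8 and 787.6 in WT (1.74, adjusted p = 0.0024). JAZ6 had 3934.8, 5456.8 and 4515.4 in phr3 and 2742.9, 2941.7 and 2763.3 in WT, a narrower gap of 0.71 (adjusted p = 0.00286). JAZ4 rose by 0.56 (adjusted p = 0.0109), a call that ended without phr3 replicate 3 (adjusted p = 0.0505), without WT replicate 1 (adjusted p = 0.052), after median centring (adjusted p = 0.186) and with untrended eBayes (adjusted p = 0.0665). JAZ9 just missed the threshold with 136, 700.5 and 460.5 in phr3 and 52.1, 115.9 and 96.9 in WT (2.08, adjusted p = 0.0505), and passed without phr3 replicate 1 (2.76, adjusted p = 0.00194) or with the phr123 array labelled replicate 1 left out (adjusted p = 0.0425). JAZ3 had 2107.9, 1562.8 and 1974.4 in phr3 and 1197.8, 1255 and 1356.9 in WT (0.56, adjusted p = 0.069), and JAZ1, JAZ5, JAZ7, JAZ8 and JAZ11 had differences between -0.03 and 0.69 (adjusted p from 0.216 to 0.952).

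On the synthesis side, AOS2, an allene oxide synthase, had 298.6, 443.4 and 297.1 in phr3 and 212.1, 167.6 and 171.8 in WT (0.90, limma adjusted p = 0.0639). It passed with the phr123 array labelled replicate 1 left out (adjusted p = 0.0321). AOC, the allene oxide cyclase that follows it, had 0.60 (adjusted p = 0.208), the lipoxygenase gene LOX5 -0.25 (adjusted p = 0.39) and the jasmonate receptor gene COI1A -0.24 (adjusted p = 0.174). Of all 31 measured members, 23 were higher in phr3 and 8 lower, with a median of 0.21, or 0.13 after median centring, beside 0.00765 and -0.0702 over all genes. The mean over the list relative to WT was 0.29, 0.61 and 0.58 on the 3 phr3 arrays, and WT arrays lay from -0.05 to 0.05.

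**Figure D3:**
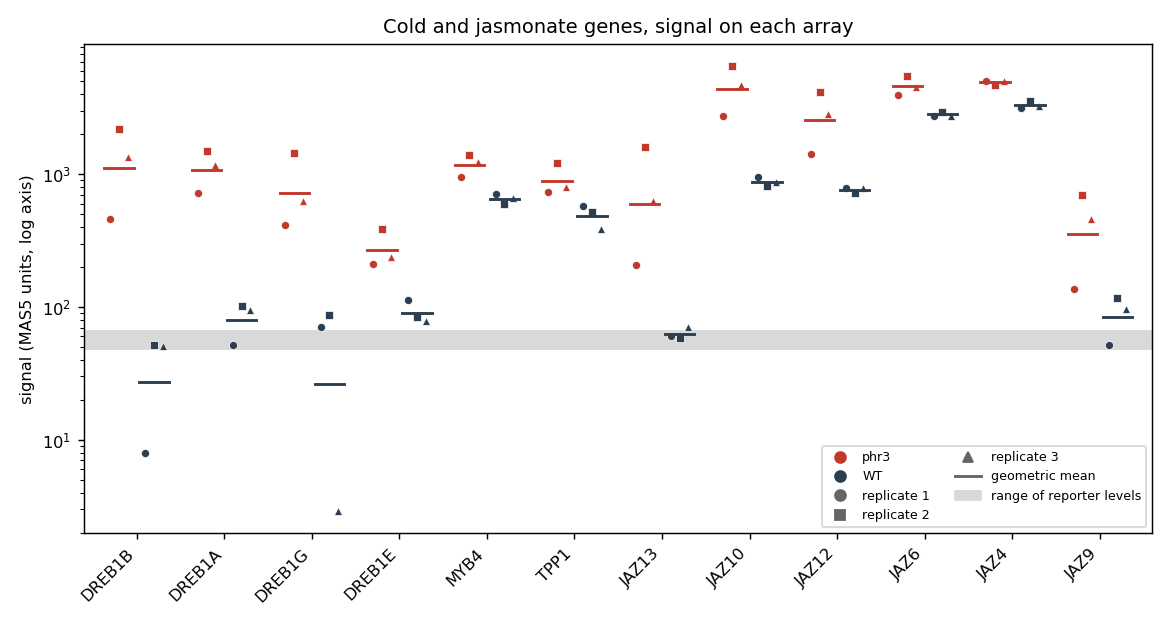
Signal (MAS5 units, log axis) of 6 cold genes and 6 JAZ genes on each array of phr3 (red) and WT (dark), with the geometric mean as a bar and the range of the reporter levels in grey. The 3 phr3 arrays lie above the 3 WT arrays for each gene shown, and phr3 replicate 1 is the lowest of the 3 for DREB1B (457.4) and JAZ13 (205.7).

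Among the other rapid stress and calcium genes, 23 of 98 rose (23.5%), or 15 after median centring and 14 with untrended eBayes. The count was 13 without phr3 replicate 2, 14 without phr3 replicate 3 and 13 without WT replicate 2. The calmodulin-like genes encode calcium sensors. CML27 had 3967.6, 4373.4 and 4859.6 in phr3, against 1690.1, 1742.4 and 1727.5 in WT. The arrays of each genotype stayed close together, and the difference was 1.35 (SE 0.114, limma adjusted p = 2.69e-05); a second, dim CML27 probe set had 0.23 (adjusted p = 0.894). CML16 had 5107.4, 9057.8 and 7139.8 in phr3 and 2557, 2249.6 and 2096.2 in WT (1.59, adjusted p = 0.000103). CML30, CML31 and CML10 rose by 0.60, 1.54 and 0.48, and the calcium-regulated kinase genes CIPK10, CIPK3, CIPK21 and CDPK1 by 0.85, 0.52, 0.65 and 0.79 (adjusted p from 0.00494 to 0.0339). Of the 23 rises of the list, 11 held throughout the fits that each left out a phr3 or WT array. CML27 and CML16 were among those that held. Most of the rises of CML30, CML31, CML10, CIPK10, CIPK3, CIPK21 and CDPK1 were not.

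Some transcription factor and zinc finger genes of the same list also rose. NAC071, also known as NAC5, a NAC factor of drought and salt responses, had 5797.1, 5111.5 and 4993.6 in phr3, against 2819.8, 2897.9 and 3239.8 in WT. Here phr3 replicate 1 was the highest array, and the rise was 0.83 (limma adjusted p = 0.000195). In the dimmer NAC071 probe sets phr3 replicate 1 was the lowest phr3 array. Of these, Os.51926.1.S1_at had 0.80 and did not pass (adjusted p = 0.0607). Os.51926.1.S1_x_at rose by 0.77 (adjusted p = 0.0189), a call that ended without phr3 replicate 2 or WT replicate 2 (adjusted p = 0.0945 and 0.0909). NAC067 rose by 0.85 (adjusted p = 0.000925), SAP1, an A20/AN1 zinc finger gene induced by many stresses, by 0.86 (adjusted p = 0.00254) and WRKY71, a WRKY factor of defence and hormone responses, by 2.00 (adjusted p = 0.00346). WRKY71 had 1220.9, 3045.5 and 1929.6 in phr3 and 458.9, 454 and 539.1 in WT. ERG1, a small C2-domain protein gene first described as elicitor-induced, had 346.9, 445.3 and 506.2 in phr3 and 48.5, 8.1 and 97.1 in WT (3.67, adjusted p = 0.0067), with 2.64 without WT replicate 2 and 4.43 without WT replicate 3. WRKY24, singled out after its values were seen, had 350.9, 277.2 and 402.8 in phr3 and 17, 37.5 and 41.7 in WT, at least 6.16-fold higher (adjusted p = 0.0352). Its call ended without any 1 of the 6 phr3 or WT arrays (adjusted p from 0.0719 to 0.14).

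Hormone genes outside jasmonate changed in a few places. ABA8OX1, the hydroxylase that breaks down abscisic acid, had 569.2, 1773.2 and 745.5 in phr3, against 145.5, 225.3 and 164.5 in WT (2.37, limma adjusted p = 0.00152). The protein phosphatase genes PP2C32, PP2C35 and PP2C48 rose by 1.76, 0.96 and 0.56 (adjusted p = 2.27e-05, 0.000544 and 0.00901), the last not without phr3 replicate 3, without WT replicate 2 or after median centring (adjusted p = 0.0528, 0.0526 and 0.195). PP2C35, also called XB15, is a phosphatase of the XA21 immune receptor and no abscisic acid gene by name. The list took these phosphatase genes by their PP2C symbol alone, so a role of PP2C32 and PP2C48 in abscisic acid responses is not shown either. In all, 5 of 72 abscisic acid and late embryogenesis genes rose and 1 fell, and 3 passed without WT replicate 2.

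Of 28 cytokinin genes, 4 rose and 0 fell. The type-A response regulators, which are switched on by cytokinin and dampen its signal, gave RR9 with 2259.4, 2472.8 and 2055.2 in phr3 and 636.9, 520 and 545.6 in WT. RR9 rose by 2.00 (SE 0.144, limma adjusted p = 1.03e-05), RR6 by 0.84 (adjusted p = 0.000198) and RR4 by 0.83 (adjusted p = 0.00132). CKX4, a cytokinin oxidase that degrades the hormone, had 800.7, 839.1 and 742.1 in phr3 and 446.4, 390.6 and 428.3 in WT (0.91, adjusted p = 0.00148). These 4 kept their calls without any 1 of the 12 arrays. The glutaredoxin genes GRXS9 and GRXS5 rose by 1.09 and 0.76 (adjusted p = 9.19e-05 and 0.00313), 2 of 17 measured glutaredoxins. Of 61 gibberellin, ethylene and auxin genes 0 passed in limma, 7 had an unadjusted p under 0.05, and their median was 0.09.

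Of the 70 cell division genes, 2 B-type cyclin genes fell (2.86%), a share near the 2.55% of all genes that passed. CYCB1-1, a B-type cyclin gene that peaks at the entry to mitosis, had 109.9, 116.2 and 76.8 in phr3, against 263.7, 229.6 and 324.2 in WT. The genotypes did not overlap, a condition of its choice among the largest falls, and the difference was -1.44 (SE 0.249, limma adjusted p = 0.0067). CYCB2-2, a second B-type cyclin gene, had 20.2, 11.7 and 71.5 in phr3, at or below the reporter level on 2 of the 3 arrays, and 180.8, 121 and 120.4 in WT (-2.43, adjusted p = 0.0484), a call that ended in 10 of the 12 fits that each left out an array (adjusted p from 0.0575 to 0.188). It held without phr3 replicate 3, which leaves only phr3 arrays below the reporter level, and with the phr123 array labelled replicate 1 left out. CDKB2-1, the plant-specific mitotic kinase, had 123.2, 90.1 and 92.9 in phr3 and 295.4, 240.4 and 148.1 in WT (-1.12, adjusted p = 0.117). CenH3, the histone of centromeres, had 56.6, 75.5 and 84.7 in phr3 and 157.6, 137.3 and 153.7 in WT (-1.07, adjusted p = 0.138). Neither passed, although the arrays of the genotypes did not overlap, as in 18.8% of all probe sets.

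The S-phase genes MCM2, a subunit of the replicative helicase, and PCNA, the sliding clamp, had -1.40 (limma adjusted p = 0.243) and -0.49 (adjusted p = 0.288). KRP5, an inhibitor of cyclin-dependent kinases, had -0.61 (adjusted p = 0.174), and KIN12C, a kinesin gene, had -0.88 (adjusted p = 0.287). D-type cyclin genes, which act in the decision to divide, went both ways, with -0.65 for CYCD4-1 (adjusted p = 0.202) and 0.30 for CYCD5-2 (adjusted p = 0.329). Of the 70 genes measured, 45 were lower and 25 higher, with a median of -0.09, or -0.17 after median centring. The list mean relative to WT was -0.27, -0.31 and -0.19 on the phr3 arrays, and WT arrays lay from -0.07 to 0.06. EL2, a gene outside the list whose product inhibits cyclin-dependent kinases and is induced by elicitor and stress, rose by 1.75 in 1 probe set and by 1.25 in the other (adjusted p = 0.00313 and 0.00161), with 1373.2, 2279.9 and 1836.5 in phr3 and 765.9, 759.3 and 729.7 in WT in the brighter. In shoots measured whole, fewer cells of a kind and less of a transcript per cell cannot be told apart.

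Of the heat shock genes 11 fell, among them 2 class B heat stress factor genes. HSFB2A had 563.9, 706.1 and 613.6 in phr3, against 2119.3, 2372.3 and 2296.3 in WT, and its second probe set had 186.1, 306.8 and 287.9 in phr3 and 642.9, 721.4 and 942.2 in WT. Both probe sets separated the genotypes, with differences of -1.85 (SE 0.157, limma adjusted p = 2.69e-05) and -1.58 (adjusted p = 0.00509). HSFB2B had 45.4, 40.2 and 59.6 in phr3, at or below the reporter level on all 3 arrays, and 236.9, 384.9 and 243.4 in WT, at least 5.03-fold lower in phr3 (adjusted p = 0.00233). Among the class A factors, which activate, HSFA4B fell by 0.53 (adjusted p = 0.0157), and lost its call when phr3 replicate 1, phr3 replicate 3 or WT replicate 2 was left out (adjusted p from 0.0615 to 0.0784) or after median centring (adjusted p = 0.0943).

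Small heat shock protein genes made up 5 of the 11 falls. HSP24.1 had 5177.9, 5140.6 and 4007.6 in phr3, against 10940, 12717.8 and 11478.1 in WT (-1.30, SE 0.127, limma adjusted p = 6.99e-05). The highest phr3 array stayed below the lowest WT array by a wide margin. HSP18.6 had 1721.8, 2159.3 and 1712.6 in phr3 and 4448.1, 3762.1 and 3914.7 in WT in the probe set with the steadier call (-1.12, adjusted p = 0.00311), and -1.02 in the brighter one (adjusted p = 0.0172), which passed in none of the fits that left out phr3 replicate 1, phr3 replicate 2 or any WT array (adjusted p from 0.0572 to 0.0646). HSP16.0 and HSP26.2 fell by 0.93 and 0.77 (adjusted p = 0.00141 and 0.00534), the second not after median centring (adjusted p = 0.0516). The fifth, hsp17.9, fell by 0.84 (adjusted p = 0.0397). HSP18.8 went the other way and rose by 0.51 (adjusted p = 0.0288). HSP26.7, HSP16.9A and HSP17.7 had -2.02, -0.74 and -0.55 and did not pass (adjusted p = 0.299, 0.587 and 0.396).

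Cochaperones and large chaperones completed the list. DJC27, an endoplasmic reticulum J-domain protein gene, had 1156.6, 1730.1 and 1351.3 in phr3, against 2570.7, 3301.8 and 3300.4 in WT, with no overlap (-1.12, limma adjusted p = 0.000613). HSP81-1, an HSP90 gene, fell by 0.38 (adjusted p = 0.0366), and CLPB1, a disaggregase gene, by 0.93 (adjusted p = 0.0453). BIP1, the HSP70 of the endoplasmic reticulum, had -0.23 (adjusted p = 0.273). Over the list of 49, 36 genes were lower and 13 higher, with a median of -0.23, or -0.30 after median centring, and the list mean relative to WT was -0.41, -0.35 and -0.33 on the phr3 arrays with WT arrays from -0.02 to 0.02. The 12 calls became 7 after median centring or with untrended eBayes, 7 without phr3 replicate 1 or phr3 replicate 3, and 6 without WT replicate 2. Across all fits that left out 1 of the 6 phr3 and WT arrays, 6 of the 11 falls and 0 rises held throughout. The falls of hsp17.9, HSP81-1 and CLPB1 and the rise of HSP18.8 were not among those that held.

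**Figure D4:**
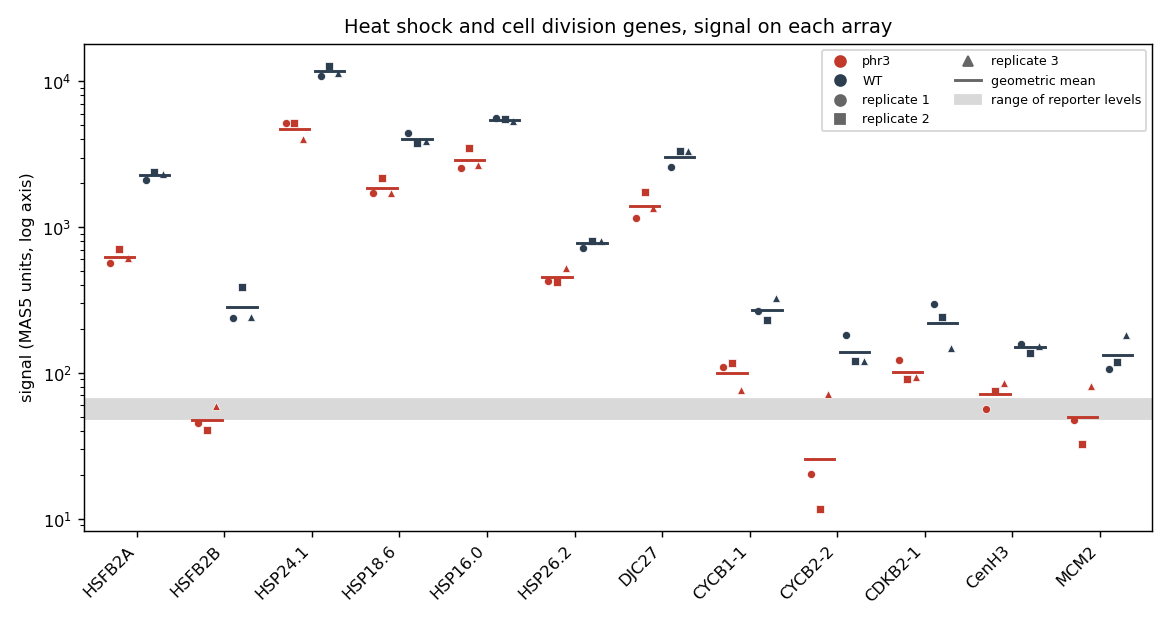
Signal (MAS5 units, log axis) of 7 heat shock genes and 5 cell division genes on each array of phr3 (red) and WT (dark), with the geometric mean as a bar and the range of the reporter levels in grey. HSFB2A lies at 563.9 to 706.1 in phr3 and 2119.3 to 2372.3 in WT, while CYCB2-2 and MCM2 reach into or below the reporter range in phr3.

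Of 19 phosphate starvation genes, 1 fell and 0 rose. This was SPX3, with 552.2, 654.3 and 643.2 in phr3 and 1762.6, 1213.6 and 1265 in WT (-1.18, limma adjusted p = 0.044), a call that ended when any 1 of the 6 phr3 and WT arrays or that of phr1 replicate 2 was left out (adjusted p from 0.0633 to 0.185), and with untrended eBayes (adjusted p = 0.128). The count was 2 where PHR3, which is on this list, passed. The phosphate transporter gene PT4 had 3415.5, 2676 and 3634.9 in phr3 and 4266.6, 3692.3 and 4266.1 in WT (-0.34, adjusted p = 0.189), and the probe sets of PT1, another transporter gene, disagreed, with 0.43 (adjusted p = 0.096) and -0.32 (adjusted p = 0.658). All 21 cytosolic ribosome genes had a lower mean in phr3, between -0.31 and -0.03, yet 0 passed in limma (smallest adjusted p = 0.116, RPL3), although 9 had an unadjusted p under 0.05, and the median was -0.18 or -0.25 after median centring. The list mean relative to WT was -0.16, -0.18 and -0.21 in phr3, and 0.08, -0.15 and 0.07 in WT, so that WT replicate 2 lay beside the phr3 arrays. In limma, 0 of 14 photosynthesis genes (median -0.06), 0 of 7 clock genes (median 0.12), 0 of 9 root markers (median 0.02) and 0 of 4 seed or pollen markers (median 0.08) passed. The smallest adjusted p was 0.715 for the root markers (LSI1, a silicon channel gene) and 0.448 for the seed and pollen markers (GLUB-5, a glutelin gene). An unadjusted p under 0.05 was found in 1 photosynthesis gene, 2 clock genes, 0 root markers and 0 seed or pollen markers. The clock gene PRR95 (0.42, adjusted p = 0.114) passed when only the 6 phr3 and WT arrays were fitted (adjusted p = 0.0359) and without phr1 replicate 1.

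Outside all lists, 32 further genes with a symbol passed, 22 that rose and 10 that fell. In 11 of the 22 and 2 of the 10 the call held without any 1 of the 6 phr3 and WT arrays. The 2 falls were R40C1, a lectin-like gene induced by abscisic acid and salt, with 9064.1, 11247.1 and 10261.2 in phr3 and 14202.7, 16886.3 and 15659.8 in WT (-0.61, limma adjusted p = 0.00282), and RAN1, a small GTPase gene of nuclear transport and mitosis, with 1033.7, 961.1 and 1138.7 in phr3 and 1515.9, 1553.5 and 1473.3 in WT (-0.54, adjusted p = 0.00509). The fall of RAN1 ended after median centring (adjusted p = 0.0597). Of the rises, chosen after their values were seen, BIMK1, the stress-activated MAP kinase also named MAPK5, had 888.6, 1169.1 and 971.5 in phr3 and 459.7, 504.1 and 530.6 in WT (1.01, adjusted p = 0.000499). The homeodomain gene HOX1 rose by 0.97 (adjusted p = 0.000647), the phytoene synthase gene PSY3, which feeds stress-induced abscisic acid synthesis, by 0.80 (adjusted p = 0.00464) and the arginine decarboxylase gene ADC1, of polyamine synthesis, by 0.61 (adjusted p = 0.00139).

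Most changes fell on genes without a symbol. Of the 569 probe sets called, 335 had a gene with a LOC identifier only and 130 had no gene in the annotation used here. As a share of those tested, 3.83% of probe sets with a symbol passed, 2.14% of those with a LOC identifier only and 1.27% of those with no gene. Of the probe sets with 1 gene that passed, 436 belonged to protein-coding genes and 1 to a transcribed pseudogene. The annotation gives these loci no function, so none is stated. The largest differences in the comparison were found here, and levels in the other genotypes are given beside some of them.

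LOC4331398 had signals of 3939.4, 3957.6 and 4141.3 in phr3, against 6, 4 and 33.6 in WT. The phr3 arrays agreed closely, the WT arrays lay below the reporter level, and phr3 was at least 72.7-fold higher (limma adjusted p = 4.09e-05), with a second probe set at least 70.3-fold higher (adjusted p = 3.09e-05). The same locus had 3573.1, 3515.8 and 3838.7 in phr1, and in phr123 it had 3571.4 on the array labelled replicate 1 and 388.5 and 350.5 on the others. LOC4340325 had 2237.6, 2317.2 and 1770.2 in phr3 and 51.3, 48.1 and 4.6 in WT, at least 37.9-fold higher (adjusted p = 0.00153). In phr1 it had 4.2, 2.6 and 0.3, and in phr123 2608.4, 2189.9 and 2172.4. A second probe set of LOC4340325 had 197.1, 192.7 and 133.3 in phr3 and 130.2, 143.7 and 149.5 in WT and did not pass (0.29, adjusted p = 0.733), so its probe sets disagree.

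LOC4326189, singled out after its values were seen, had 4814.6, 7834.4 and 5595.9 in phr3, against 45.8, 34.5 and 38.5 in WT. The locus was at least 108-fold higher in phr3, yet it did not pass in the fit of all 12 arrays (limma adjusted p = 0.15). In phr1 it had 2.6, 1.6 and 6.1, and in phr123 it had 2.0 on the array labelled replicate 1 but 8775.5 and 8642.2 on the other arrays, a spread that enters the pooled estimate. It passed when only the 6 phr3 and WT arrays were fitted (adjusted p = 4.2e-09) and with the phr123 array labelled replicate 1 left out (adjusted p = 1.56e-07). At LOC4331398, LOC4326189 and PHR3 alike, that array differed from the other phr123 arrays. On the whole, 6 probe sets of 5 names lay at or below the reporter level on all 3 WT arrays and above 5 times that level on all 3 phr3 arrays, and 0 did so the other way round.

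Further LOC loci rose by smaller amounts. LOC4325662 had 1421.3, 5484.6 and 3683.5 in phr3, against 255.2, 142.6 and 126 in WT (4.20, SE 0.486, limma adjusted p = 0.000293), the same order of phr3 arrays as in the DREB1 genes, and a dimmer probe set had 0.67 (adjusted p = 0.236). LOC4325431 had 2124.2, 3169.8 and 3511.7 in phr3 and 544.2, 341.1 and 485 in WT (2.68, adjusted p = 1.03e-05). In phr1, LOC4325662 had 518.7, 668.3 and 1534.9, and LOC4325431 had 1521.4, 1221 and 1494.5. Both loci were also higher in phr1 than in WT (2.29 and 1.65, limma adjusted p = 0.0442 and 0.00069). LOC4334017 rose by 2.66 (adjusted p = 0.00084). LOC4325227 and LOC4339092 lay below the reporter level in WT and were at least 4.64-fold and at least 3.35-fold higher in phr3 (adjusted p = 0.00664 and 0.00832). Without any 1 of the 6 phr3 and WT arrays these bounds ran from 70.1 to 78.1 for LOC4331398, from 36.1 to 41.3 for LOC4340325, from 4.36 to 4.99 for LOC4325227 and from 3.11 to 3.78 for LOC4339092.

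The LOC loci that fell were less extreme, and the 7 loci named here lay above the reporter level on every phr3 array. LOC4343997 had 51.1, 68.5 and 72.5 in phr3, against 351, 401.7 and 406.6 in WT, and its 2 probe sets had differences of -2.61 and -2.49 (limma adjusted p = 0.000244 and 0.000198). LOC4341420 had 1987.2, 3397.6 and 2869.9 in phr3 and 9808.1, 10621.5 and 10683.1 in WT (-1.95, adjusted p = 0.000114). LOC4328927, LOC4325422, LOC4336278 and LOC4340388 had differences of -2.30, -1.66, -1.64 and -1.51 (adjusted p from 0.000344 to 0.00455). In phr123, LOC4325422 had 51144.5, 46115.9 and 41623.5, far above its WT signals of 676.9, 847.7 and 532.7. LOC4339718 had 2145.8, 1781.2 and 1726.9 in phr3, 2013.4, 1304.8 and 1284.8 in phr1 and 4847.3, 5275 and 6146.3 in WT (-1.52 for phr3 against WT, adjusted p = 0.000308). Its phr3 and phr1 arrays overlapped, and both lay below WT.

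**Figure D5:**
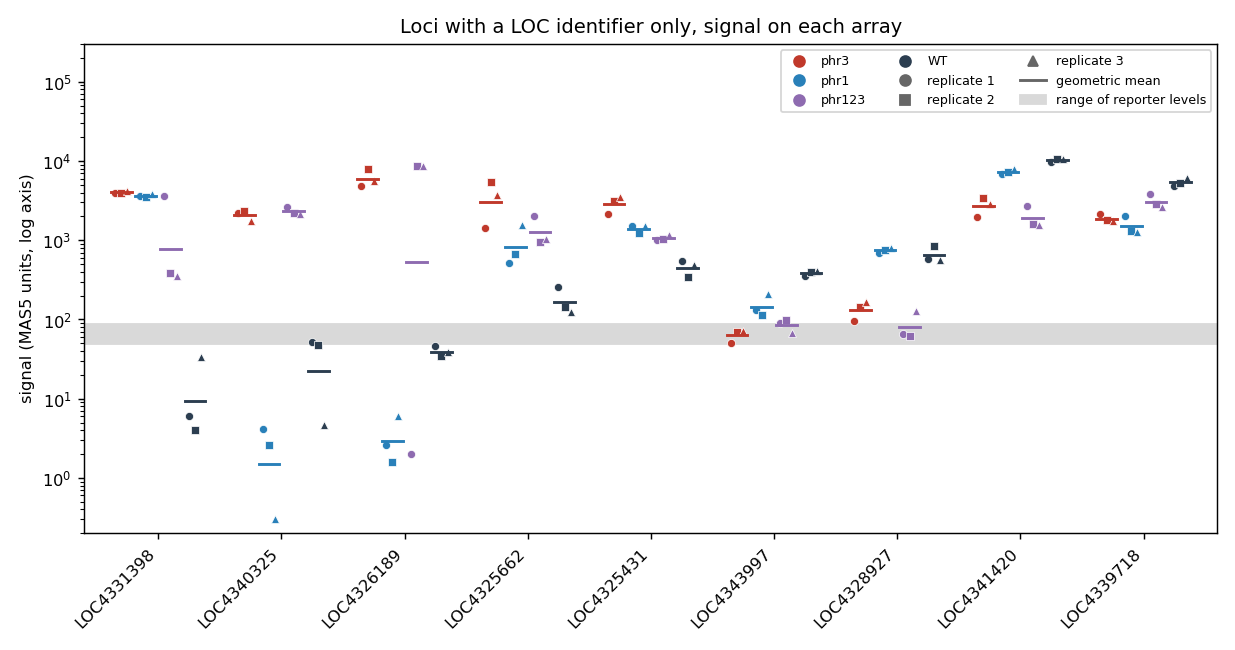
Signal (MAS5 units, log axis) of 9 loci known by a LOC identifier on each array of phr3, phr1, phr123 and WT, with the geometric mean as a bar and the range of the reporter levels in grey. LOC4331398 is bright in phr3 and phr1 and dim in WT, LOC4340325 is bright in phr3 and phr123 and dim in phr1 and WT, and at LOC4326189 the array labelled phr123 replicate 1 (2.0) lies apart from the other phr123 arrays.

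Probe sets with no gene in the annotation included some of the smallest p-values. Os.39806.1.S1_at had 1073.9, 832.7 and 1037.1 in phr3, against 64.2, 60.3 and 6.5 in WT (5.06, limma adjusted p = 0.00333, and 3.97 without WT replicate 3). Its phr1 signals were 900, 751.6 and 754.4. Os.53606.1.S1_at had 99.4, 103.3 and 133.3 in phr3 and 2.5, 3.7 and 3.3 in WT, at least 2.01-fold higher (adjusted p = 6.19e-05), but it did not pass when only the 6 phr3 and WT arrays were fitted (adjusted p = 0.155). In phr1 Os.53606.1.S1_at had 195.3, 166 and 128.5. The probe sets with the smallest adjusted p of this class, chosen after their values were seen, were Os.54492.1.S1_s_at, with 1469.2, 1273.2 and 1694.9 in phr3 and 53.3, 61.6 and 40.9 in WT, and OsAffx.22999.1.S1_at, with 11066.2, 9164 and 8578.6 in phr3 and 419.9, 449.8 and 262.6 in WT (4.84 and 4.70, adjusted p = 2.08e-07 for both). In phr1 these had 2872.8, 1968.7 and 1691.9, and 6253, 8908.7 and 12773.7. Os.11112.1.S1_s_at, with 38.5, 95 and 139.1 in phr3 and 1600.8, 3296.7 and 2084 in WT, and Os.10246.4.S1_x_at, with 241.4, 296 and 539 in phr3 and 1919.4, 1758.4 and 1635.5 in WT, had differences of -4.8 and -2.39 (adjusted p = 0.00349 and 0.000107).

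Called genes were also placed in the gene order of the RefSeq annotation. Of 394 called genes, 26 stood in 13 pairs of neighbouring measured genes that passed in the same direction, 9 pairs that rose and 4 that fell, and no run was longer than 2. Among the 15469 genes placed, 1.67% rose and 0.873% fell. How many such pairs would arise without any grouping was not estimated. DREB1B with DREB1A and JAZ13 with JAZ12 made up a pair each. LOC4326919 and LOC4326920 rose by 1.79 and 3.03, LOC4337987 and LOC9271957 by 1.78 and 1.40, while LOC4325422 and LOC4325424 had differences of -1.66 and -0.70. These pairs were chosen after their values were seen.

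The phr3 mutant was then set directly against phr1, the other single mutant. Over all probe sets, 479 differed between them (1.68%), 278 after median centring, 162 without phr1 replicate 2, 240 without phr3 replicate 2 and 210 without phr3 replicate 3. DREB1A was higher in phr3 than in phr1 (2.29, limma adjusted p = 0.00428), whereas DREB1B, with 2.36, did not pass (adjusted p = 0.104). Of the 12 measured JAZ genes, JAZ10, JAZ12, JAZ13, JAZ6, JAZ4 and JAZ9 were higher in phr3 than in phr1 (0.53 to 2.65, adjusted p from 0.00163 to 0.0231), and the other 6, JAZ3 with 0.00 and the rest between 0.08 and 1.17, did not pass (adjusted p from 0.0508 to 0.998). Also higher were ABA8OX1 (2.32, adjusted p = 0.00326), CML27 (0.82, adjusted p = 0.00273) and NAC071 (0.78, adjusted p = 0.00083). DREB1G, DREB1E, WRKY71, ERG1 and SAP1 had 2.88, 1.36, 1.28, 1.70 and 0.50 and did not pass (adjusted p = 0.192, 0.0558, 0.0624, 0.236 and 0.0808). Past the threshold, 2 of 13 cold genes and 11 of 98 rapid stress genes were higher in phr3 than in phr1, and 0 were lower. Of the 43 probe sets chosen for size, 21 passed against phr1 in the same direction. Of the 70 cell division genes, 3 were lower in phr3 than in phr1 and 0 higher, with a list median of -0.11. The 3 were CYCB1-1, CYCB2-2 and CDKB2-1 (-1.76, -3.08 and -1.57, adjusted p = 0.00283, 0.0164 and 0.0261). Of the 49 heat shock genes, 5 were lower in phr3 than in phr1 and 2 higher. HSP24.1, HSP16.0 and DJC27 were among the lower ones (-1.02, -0.70 and -0.81, adjusted p from 0.00152 to 0.0148). HSFB2B was at least 2.91-fold lower in phr3 than in phr1 (adjusted p = 0.0333). HSFB2A was lower in 1 probe set (-0.99, adjusted p = 0.00551) and did not pass in its other one (-0.97, adjusted p = 0.0882).

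Of the 28 cytokinin genes, 0 differed past the threshold between phr3 and phr1 in limma and 3 had an unadjusted p under 0.05, and the difference was 0.51 for RR9 (adjusted p = 0.105), -0.20 for RR6 (adjusted p = 0.369), 0.13 for RR4 (adjusted p = 0.703) and 0.52 for CKX4 (adjusted p = 0.0624). HSP18.6 had -0.50 and -0.35 in its 2 probe sets and HSP26.2 had -0.28 (limma adjusted p = 0.194, 0.487 and 0.369). Of the LOC loci, LOC4340325 was at least 27.7-fold higher in phr3 than in phr1 (adjusted p = 0.000113), with all phr1 arrays below the reporter level, and LOC4328927, LOC4341420, LOC4325422 and LOC4336278 were lower (-2.50, -1.45, -2.14 and -1.81, adjusted p from 0.000824 to 0.004). LOC4331398 and LOC4339718 had 0.14 and 0.32 (adjusted p = 0.966 and 0.468).

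The order of the 3 phr3 arrays was uneven. Of the 30 genes of the cold, jasmonate and rapid stress lists that rose, phr3 replicate 2 was the highest of the 3 phr3 arrays in 18 and phr3 replicate 1 the lowest in 21, and both held in 16 (53.3%). Among all 360 probe sets that rose both held in 133 (36.9%), and among all probe sets tested in 4746 (16.6%). The array of phr3 replicate 1 is the one with the low GAPDH ratio given above. Among the 209 that fell phr3 replicate 1 was the lowest in 105. The highest was phr3 replicate 2 in 81 and phr3 replicate 3 in 80. Replicate 1 was lowest and replicate 2 highest together in 53 (25.4%). Of the 11 heat shock genes that fell, phr3 replicate 1 was the lowest in 6, phr3 replicate 2 the highest in 6, and both held in 5. The part of RNA quality in these orders was not tested.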

How the data were processed

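The authors deposited 1 signal intensity for each probe set on each array, on a linear scale, computed with MAS5 per the submitters' processing notes, which name no version. The trimmed mean was 500.1 on every array, so the values had been scaled before deposit. From the files on, R 4.3.3 with limma 3.58.1 was used. Of 57381 probe sets, 123 AFFX and 64 reporter controls were left out, 8 values of 0 were set to 0.1, signals were taken to log2 without further scaling, and the 28597 probe sets with a mean at or above the median (a signal of 49.4) were kept. lmFit with 1 mean per genotype over all 12 arrays (8 residual degrees of freedom), eBayes with a trend and Benjamini-Hochberg adjustment over all probe sets gave the contrasts. The fit was tested on simulated data. A percentile of 95 over the reporter controls, without 3 probe sets that gave signal in phr123, set the reporter level; where the dimmer genotype lay at or below it on all arrays, the fold is the brighter mean over that level. Nothing says whether a repeat was 1 plant or a pool, so p-values reflect only the variation among these arrays, and 3 arrays per genotype limit the precision. The array annotation named 1 gene for 22436 probe sets, several for 95 and none for 34663; RefSeq assembly ASM3414082v1 supplied symbols, synonyms, biotypes and gene order only. Lists were symbol patterns, from which 32 chance matches were removed by identity. The members and lists were chosen with earlier results of these data known. Named genes are PHR1 to PHR3 and members with the smallest p of each list (up to 8 or 4). The largest steady rises and falls are also named, 12 each with a symbol, 8 each with a LOC identifier and 2 each with no gene. Steady means that the 3 phr3 arrays lay all above or all below the 3 WT arrays. It also means that the call held without any 1 of these arrays. Others are marked. Same-numbered phr3 and WT arrays did not deviate together (r -0.00415, -0.0111 and -0.00232), so numbers were not taken as pairs. Alternatives tried were scaling, filter, moderation, pseudocount, replicate block, phr3 and WT arrays alone, and leaving out each array.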

Additional observations from a re-analysis of the deposited data

How the results depend on the processing

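The 569 probe sets that passed between phr3 and WT became 298 after median centring and 299 with untrended eBayes, and 331 to 718 when each array was left out in turn. The 360 rises became 178 and 210 under these settings and 206 to 412 over the arrays left out, and the 209 falls became 120, 89 and 106 to 306. The 479 differences between phr3 and phr1 became 278 after centring and 162 to 580 over the arrays left out. By list, the phosphate count of 1 was 2 with only the 6 phr3 and WT arrays, 0 with untrended eBayes and 0 to 2 over the arrays left out. The cold count of 6 ranged from 3 to 6, the abscisic acid count of 6 from 3 to 6 and the clock count of 0 from 0 to 1, with 1 on the 6 phr3 and WT arrays. The rapid stress count of 23 became 15 after centring, 14 with untrended eBayes and 13 to 23 over the arrays left out, and the heat shock count of 12 became 7, 7 and 6 to 16. The cell division count of 2 was 1 with only the 6 phr3 and WT arrays, after centring, after quantile normalization, with no filter, with a filter at the reporter level and with the replicate block, and 1 to 2 over the arrays left out. The PHR3 difference was -2.34 and passed with only the 6 phr3 and WT arrays, and lay from -2.57 to -2.05 over the arrays left out. Of 72 named probe sets called, 56 kept their call under every setting and 0 changed sign past the threshold. Of the 72, 43 were chosen for size among calls that held without any 1 of the 6 phr3 and WT arrays. Their steadiness in those fits was therefore set by the choice. Of all 360 rises and 209 falls, 177 and 74 held in those fits. The cause of these shifts was not tested. Same-numbered arrays did not deviate together, and the replicate block, with 502 probe sets called against 569, ended 4 of the 72 named calls. The promoter motif search was not run. Probe sets near the reporter level, such as DREB1B in WT, have fold changes of uncertain size.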

Other observations

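Probe sets were found where the phr3 arrays themselves split. At Os.5353.1.S1_at, which has no gene in the annotation, phr3 replicates 1 and 3 had signals of 3544.8 and 3737.5, phr3 replicate 2 had 10.2, and the WT arrays had between 1.5 and 26. LOC4346960 had 2346.9 and 1986.4 on phr3 replicates 1 and 3, 53.2 on phr3 replicate 2, and 4.3, 8.6 and 62.5 on the WT arrays. These were the 2 probe sets with some phr3 arrays at or below the reporter level and the rest above 10 times it. In both, phr3 replicate 2 was the odd array, and neither passed the test against WT (limma adjusted p = 0.095 and 0.067). WT and phr1 had 0 such probe sets each. Splits within phr123 were not counted. There LOC4326189 had 2.0 on the array labelled replicate 1 and 8775.5 and 8642.2 on the others.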
